A study of Tachysurus vachellii with 6 samples.

Results

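The miR-130, miR-301 and miR-454 miRNAs form a family by their shared seed, the bases near the 5′ end with which a miRNA recognises its target transcripts. They were examined in small RNA of extracellular vesicles prepared from the liver of Pelteobagrus vachellii, the darkbarbel catfish, labelled Tachysurus vachellii. Members were taken by family number in the name, with any letter, arm or variant suffix, and listings of 1 sequence were summed. This gave 17 entries, from 20 rows, of 841 entries in all. The hypoxia group had 3 libraries from fish held for 4 h at a dissolved oxygen of 1.0 mg/L, reached by sealing the water and bubbling nitrogen. The normoxia group had 3 libraries labelled normoxia, 4 h, at 6.8 mg/L, which the water of the hypoxia group held before its oxygen was lowered. Fish of both groups had been fasted for 48 h. The sample titles name the tissue, and the protocol text names the vesicles. Whether libraries came from separate fish is not in the labels, so the p-values measure the spread between these samples alone, and that spread may be technical.

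In vertebrates a precursor hairpin of this family gives a 3p strand, which carries the seed, and a 5p strand, which lies opposite it in the hairpin. In mammals the 3p miRNAs are known to repress parts of the TGF-beta pathway, and miR-130 represses the adipogenic receptor PPARG. In human and mouse cells the family has been linked to hypoxia through vascular remodelling and through control of HIF-1α.

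Total counts ranged from 2038299 to 8497215 per library. Hypoxia replicate 1 was the shallowest, with 462 entries detected against 643 to 725 in the other 5 libraries. It stands apart in several results on the family, and fold changes of most members are therefore given with and without it. The hepatocyte miRNAs miR-122, miR-192 and miR-194 had a summed level of 238952 to 288063 CPM (the count scaled to a common library total) in hypoxia, against 278889 to 290079 CPM in normoxia. A vesicle preparation from whole tissue holds RNA of several cell types, and fewer vesicles of a type and less miRNA per vesicle cannot be told apart.

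The 9 entries of the 3p arm are shown because the letters at bases 2 to 8, in capitals, define the family, and the letters after them separate its members. They are printed 5′ to 3′ as deposited, with T for U. Names are as deposited: the prefix stands for the species whose miRNA was matched, and the sources used here do not explain the suffixes.
dre-miR-454b_R+1: tAGTGCAAtattgcttatagggt
hsa-miR-454-3p_R+1: tAGTGCAAtattgcttatagggtt
dre-miR-130a: cAGTGCAAtgttaaaagggcat
dre-miR-130a_R-2: cAGTGCAAtgttaaaagggc
dre-miR-130b: cAGTGCAAtaatgaaagggcat
dre-miR-130c-3p: cAGTGCAAtattaaaagggcat
cpo-miR-301a-3p_R-2: cAGTGCAAtagtattgtcaaagc
dre-miR-301b-3p_R+1: cAGTGCAAtagtattgtcattgc
dre-miR-301c-3p_R+1: cAGTGCAAtagtattgtcatagc

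All 9 shared the letters of bases 2 to 9. The miR-454 entries began with T and the other 7 with C. Counted from 1 at the 5′ end, dre-miR-130a differed from dre-miR-130c-3p by A10G (dre-miR-130c-3p first), and dre-miR-130b differed from it by T11A and A13G. The miR-301 entries were alike over their first 19 bases: relative to dre-miR-301c-3p_R+1, cpo-miR-301a-3p_R-2 carried T20A and dre-miR-301b-3p_R+1 carried A21T. dre-miR-130a_R-2 was dre-miR-130a without its last bases, and hsa-miR-454-3p_R+1 was dre-miR-454b_R+1 with 1 base more. In the whole table the seed stood at bases 2 to 8 in these 9 entries and in 0 others, predicted miRNAs included. By summed level it ranked 40 of 539 seeds.

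The 8 entries of the 5p arm are shown for the letters they hold opposite the seed. Capitals mark TTGCACT, the reverse complement of the seed, searched on the printed strand only.
oni-miR-130b-5p_1ss9CT: actctttctctgTTGCACTact
ssa-miR-130b-5p_2ss10GA12AG: gccccttttatgttgtactact
dre-miR-130c-5p_L-2R+2: cctttttctgttgtactactgt
ipu-miR-130c_R+3: gccctttttctgttgtactact
dre-miR-301b-5p_R+1: gctttgacgatgTTGCACTact
dre-miR-301c-5p_L-1R+1: ctctgacgatgTTGCACTact
ccr-mir-454a-p5_1ss16CT: accctatcagtattgtctctgc
ssa-miR-454-5p: accctatcaatattgcctctgc

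TTGCACT was held by 3 of the 8, and by 7 entries outside the family. When each 5p sequence was folded against each 3p sequence, 7 of 8 had their lowest duplex energy with a 3p entry of their own family number. The lowest for oni-miR-130b-5p_1ss9CT was -21.4 kcal/mol with dre-miR-130b, and the next was -16.6 kcal/mol with dre-miR-130c-3p. The exception, dre-miR-301c-5p_L-1R+1, gave -19.0 kcal/mol with the miR-454 entries and -17.3 kcal/mol with dre-miR-301c-3p_R+1.

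The family was led by 1 miRNA. dre-miR-454b_R+1 made up 51.5 ± 1.33% of the family's CPM in hypoxia and 48.0 ± 0.38% in normoxia (SD, n = 3 each), and ranked 80 of 841 entries by mean CPM. It measured 1071, 836 and 895 CPM in hypoxia replicates 1, 2 and 3, against 791, 868 and 767 CPM in normoxia, from 2204, 6051 and 5608 counts in hypoxia and 6650, 5084 and 4219 counts in normoxia. Hypoxia replicate 1 was the highest of the 6, and the groups overlapped. The log2 fold change, 0.21 ± 0.13 (SE), did not pass, at an adjusted p of 0.441 (edgeR quasi-likelihood, Benjamini-Hochberg). It was 0.15 ± 0.12 without hypoxia replicate 1 (edgeR, Benjamini-Hochberg adjusted p = 0.578). In a fit with offsets for GC content and length its value was 0.48 ± 0.15 and missed the threshold too (edgeR, Benjamini-Hochberg adjusted p = 0.165). The variant with 1 base more, hsa-miR-454-3p_R+1, held 1.94 ± 0.31% of the family in hypoxia and 1.81 ± 0.24% in normoxia. Its log2 fold change was 0.18 ± 0.21 (SE).

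**Figure D1:**
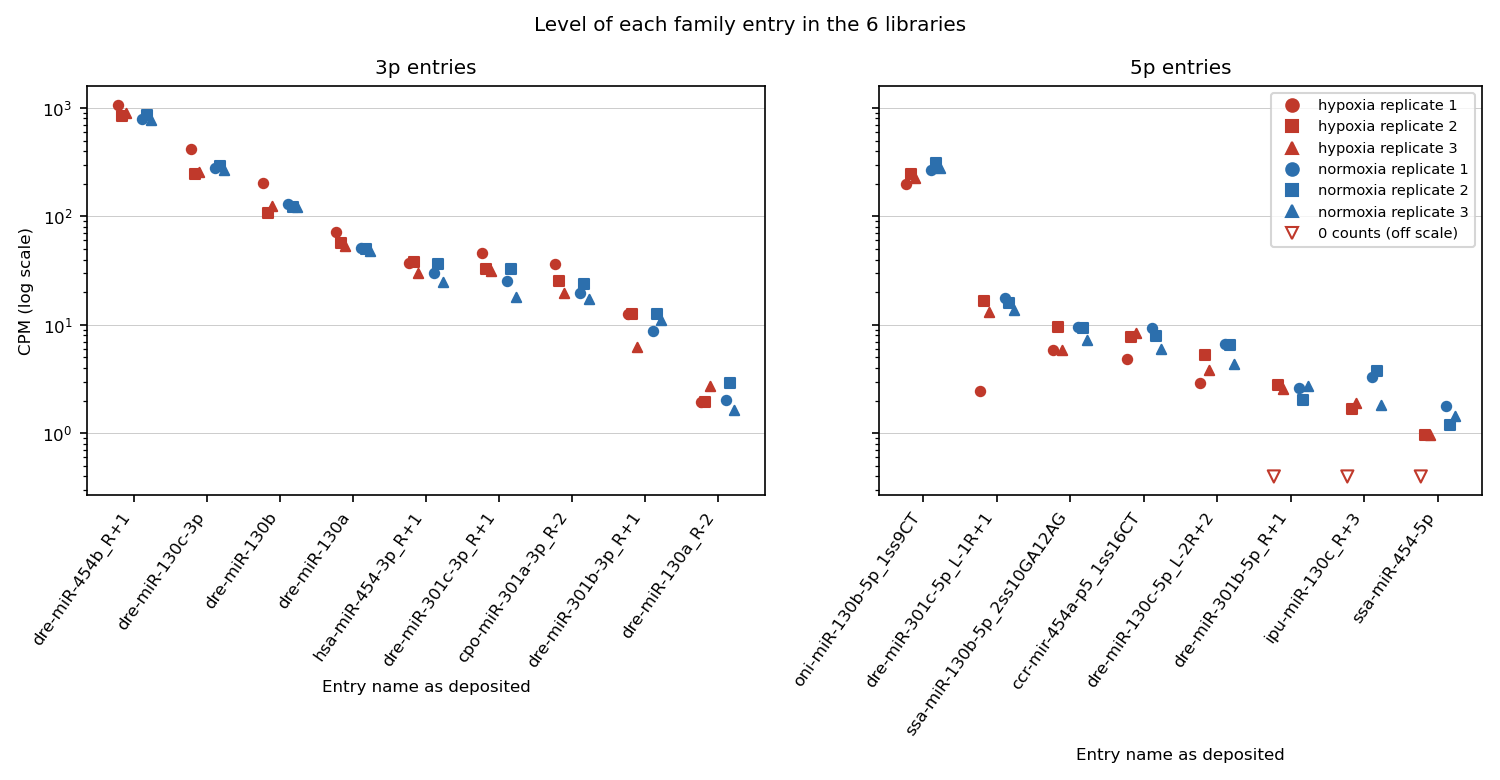
CPM (log axis) of each of the 17 entries in the 6 libraries, hypoxia in red and normoxia in blue, with a marker for each replicate. Open triangles mark 0 counts. dre-miR-454b_R+1 lies at 767 to 1071 CPM, above all other entries, and the 3 zeros are all in hypoxia replicate 1.

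Summed over all 17 entries the family stood at 2111, 1648 and 1686 CPM in hypoxia replicates 1, 2 and 3, against 1660, 1794 and 1595 CPM in normoxia. The mean was 1815 ± 257 CPM in hypoxia, against a normoxia mean of 1683 ± 102 CPM (SD, n = 3 each), and the groups overlapped, with hypoxia replicate 1 above the rest. With every sequence at its listed value, without summing, the mean was 1613 CPM in hypoxia and 1502 CPM in normoxia. No test was made on the sum, since the members were chosen with results of these data known.

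**Figure D2:**
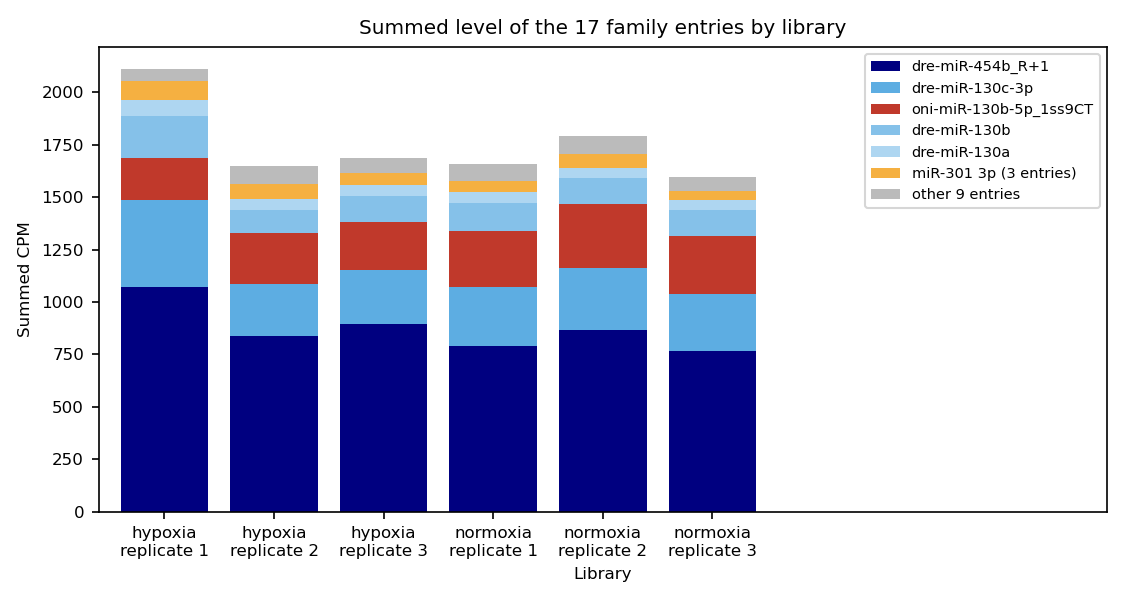
Summed CPM of the family in each library, stacked by entry, hypoxia on the left. Hypoxia replicate 1 is the tallest at 2111 CPM and the other 5 lie at 1595 to 1794 CPM; dre-miR-454b_R+1 (dark blue) is the largest piece in all 6.

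No member passed the test. Of the 17 entries, 16 passed the filter on low counts and were tested, and 0 of 16 passed (edgeR quasi-likelihood, Benjamini-Hochberg adjusted over all 519 entries tested), where 2.70% of all tested entries did. DESeq2 and limma-voom also called 0. Before adjustment, 1 member had an edgeR p under 0.05, against 18.5% of all tested entries, and DESeq2 and limma-voom likewise had 1 each. In the fit offset for GC content and length it was 5 of 16 members (31.2%), against 18.1% of all tested entries. In 2 tested members, oni-miR-130b-5p_1ss9CT and dre-miR-130a, the groups did not overlap, against 26.0% of all tested entries. Over all 6 libraries without offsets, the 3 counts came to no share above the background.

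The signs of the log2 fold changes divided by arm. Of the 9 entries of the 3p arm, 8 had a log2 fold change above 0, with a median of 0.20, and all 7 tested entries of the 5p arm had one below 0, with a median of -0.34. Over all 519 tested entries 232 were above 0 and 287 below, with a median of -0.04. Hypoxia replicate 1, the shallowest library, was the highest of the 6 libraries in 7 of the 9 entries of the 3p arm and the lowest in 7 of 7 of the 5p arm. Without it, 6 of 9 entries of the 3p arm were above 0 (median 0.15) and 5 of 7 of the 5p arm below (median -0.14), beside a median of 0.05 over 554 tested entries. Entries with a 3p name outside the family had a median of 0.01 and those with a 5p name -0.12, and without hypoxia replicate 1 these were 0.10 and -0.03. Libraries also differed in their trend on GC content, with slopes of log2 CPM per 10 points of GC of 0.11, -0.06 and 0.11 in hypoxia replicates 1, 2 and 3, beside -0.01, -0.08 and -0.07 in normoxia. Slopes per base of length were -0.005, -0.07 and -0.03 in hypoxia, beside 0.08, 0.04 and -0.02 in normoxia. Medians in a fit offset for both GC content and length were 0.41 for the 3p arm and -0.22 for the 5p arm, beside 0.004 over all tested entries. The part of both trends in the division by arm was not tested beyond these values. Entries of 1 family come from the same libraries and may share precursors. Some are end variants of another entry or appear to share counts, so they are not independent of one another.

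**Figure D3:**
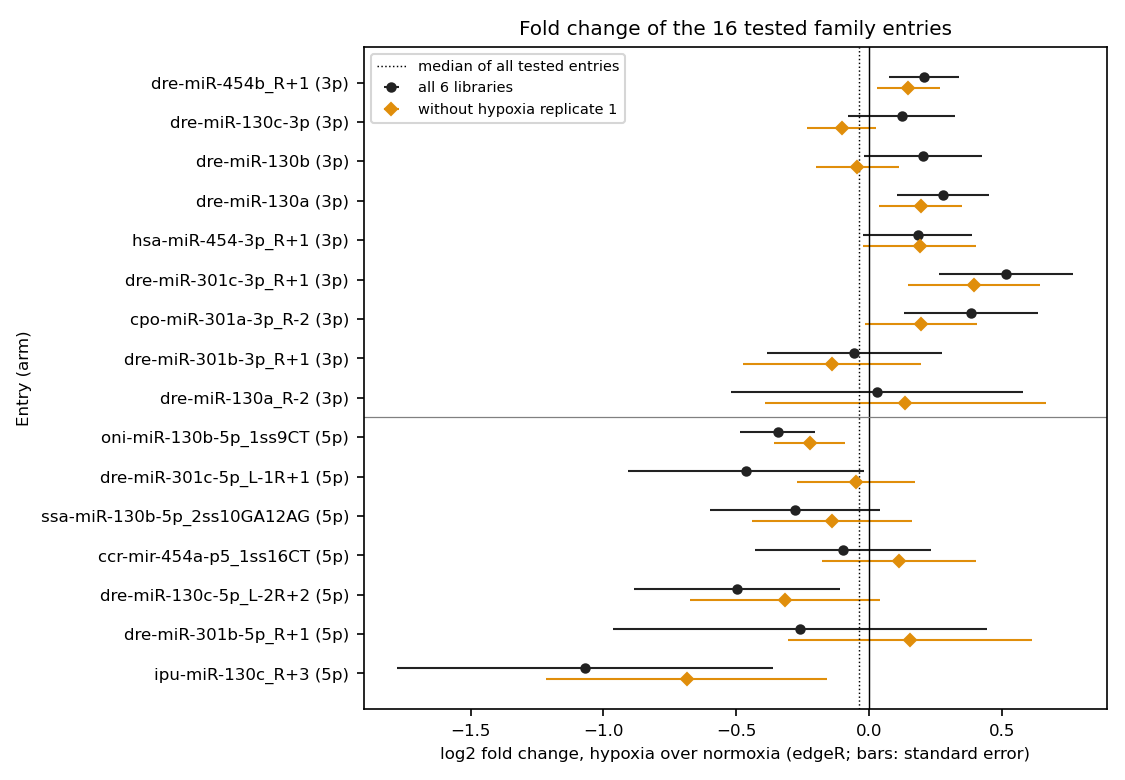
log2 fold change, hypoxia over normoxia, of the 16 tested entries with standard errors, over all 6 libraries (black) and without hypoxia replicate 1 (orange). The 3p entries above the grey line lie to the right of 0 in 8 of 9 and the 5p entries to the left in 7 of 7; without hypoxia replicate 1 the counts are 6 of 9 and 5 of 7.

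Among the miR-130 3p entries, dre-miR-130c-3p was the most abundant. Its levels were 417, 248 and 259 CPM in hypoxia replicates 1, 2 and 3, against 281, 293 and 269.7 CPM in normoxia. Hypoxia replicate 1 lay above all normoxia libraries and the other hypoxia libraries below them. The log2 fold change was 0.12 ± 0.20 over all libraries and -0.10 ± 0.13 without hypoxia replicate 1, so that its sign turned (edgeR, Benjamini-Hochberg adjusted p = 0.772 and 0.718).

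dre-miR-130b had 201, 108 and 125 CPM in hypoxia, against 131, 121 and 121 CPM in normoxia, so that hypoxia replicate 1 was again highest and the groups overlapped. Its log2 fold change of 0.20 ± 0.22 turned to -0.04 ± 0.16 without hypoxia replicate 1 (edgeR, Benjamini-Hochberg adjusted p = 0.662 and 0.896). dre-miR-130a, of a miRNA known in mammals from endothelial and blood-forming cells, had 72.0, 56.4 and 53.3 CPM in hypoxia, against 51.1, 49.9 and 47.6 CPM in normoxia. All 3 hypoxia libraries were above all 3 normoxia libraries, by a narrow margin. The log2 fold change of 0.28 ± 0.17 missed the threshold (edgeR, Benjamini-Hochberg adjusted p = 0.423). It was 0.19 ± 0.16 without hypoxia replicate 1 (edgeR, Benjamini-Hochberg adjusted p = 0.577). The shortened dre-miR-130a_R-2 lay at 1.93 to 2.71 CPM in hypoxia and 1.64 to 2.90 CPM in normoxia. Its log2 fold change was 0.03 ± 0.55, a sign that turned in 3 alternatives.

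The level of dre-miR-130a itself depends on how its 2 listings are read. Its values were whole numbers in 6 of 6 libraries as listed, whereas those of dre-miR-130c-3p and hsa-miR-454-3p_R+1, also listed 2 times, were whole in all 6 only after doubling. At its listed value dre-miR-130a averaged 30.3 ± 5.00 CPM in hypoxia, against 24.8 ± 0.89 CPM in normoxia. With its listings summed the averages were 60.5 ± 10.01 CPM in hypoxia and, in normoxia, 49.5 ± 1.77 CPM (SD, n = 3 each).

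The miR-301 3p entries, which in mammals include miR-301a, a miRNA encoded within the SKA2 gene beside miR-454, could not be separated cleanly. Each of the 3 had values whole in 2 of 6 libraries as listed and in all 6 after tripling, and their sum was whole in 6 of 6, so that some counts appear to be split evenly among 3 sequences that differ by 1 or 2 bases. As 1 value they stood at 94.3, 70.5 and 57.6 CPM in hypoxia replicates 1, 2 and 3, against 53.7, 68.3 and 46.5 CPM in normoxia. The groups overlapped, and the log2 fold change of the sum was 0.40 ± 0.22. Taken apart, dre-miR-301c-3p_R+1 had the highest log2 fold change of all members, at 0.52 ± 0.25 (edgeR, Benjamini-Hochberg adjusted p = 0.303). It measured 45.7, 32.9 and 31.4 CPM in hypoxia, against 25.4, 32.4 and 18.0 CPM in normoxia. Without hypoxia replicate 1 it was 0.40 ± 0.25 (edgeR, Benjamini-Hochberg adjusted p = 0.489). cpo-miR-301a-3p_R-2 lay at 19.8 to 36.0 CPM in hypoxia and 17.4 to 23.6 CPM in normoxia, and its log2 fold change was 0.38 ± 0.25 with hypoxia replicate 1 and 0.20 ± 0.21 without it. dre-miR-301b-3p_R+1, the rarest of them, lay at 6.22 to 12.6 CPM in hypoxia, against 8.68 to 12.5 CPM in normoxia, and was the single 3p entry with a log2 fold change below 0, at -0.06 ± 0.33, a sign that turned in 3 alternatives.

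The 5p arm was mostly 1 entry. oni-miR-130b-5p_1ss9CT measured 200.3, 245 and 228 CPM in hypoxia replicates 1, 2 and 3, against 269, 308 and 279 CPM in normoxia, from 412, 1770 and 1429 counts in hypoxia and 2259, 1803 and 1537 counts in normoxia. All hypoxia libraries lay below all normoxia libraries. Its log2 fold change of -0.34 ± 0.14 had the lowest p of the family, an unadjusted p of 0.0349 by edgeR's quasi-likelihood test, and missed the threshold after adjustment (edgeR, Benjamini-Hochberg adjusted p = 0.234). Without hypoxia replicate 1 it was -0.22 ± 0.13 (edgeR, Benjamini-Hochberg adjusted p = 0.471), and with offsets for GC content and length -0.22 ± 0.12 (edgeR, Benjamini-Hochberg adjusted p = 0.350).

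This 5p strand was more abundant than the 3p strand of the same name in 5 of 6 libraries. The ratio of oni-miR-130b-5p_1ss9CT to dre-miR-130b was 0.998, 2.26 and 1.83 in the hypoxia libraries (replicates 1, 2 and 3), against 2.05, 2.55 and 2.31 in the normoxia libraries, and the groups overlapped. For miR-301 and miR-454, with entries pooled by family number, the 5p strand was the minor one. Its ratio to the 3p strand was 0.026 to 0.274 in hypoxia and 0.264 to 0.380 in normoxia for miR-301, and 0.0044 to 0.010 in hypoxia and 0.0094 to 0.013 in normoxia for miR-454. These are ratios of counts, not of molecules, and which arms share a precursor could not be checked here.

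Over the whole family the 5p entries took 10.2%, 17.5% and 15.7% of the CPM in hypoxia replicates 1, 2 and 3, and the normoxia libraries had 19.3%, 19.8% and 19.9%. The groups did not overlap, with or without hypoxia replicate 1, and the normoxia libraries lay within 1 percentage point of one another. This share is not a strand ratio of 1 hairpin. Its 5p part was mostly oni-miR-130b-5p_1ss9CT, and its 3p part was led by dre-miR-454b_R+1, of another family number. By family number, the log2 ratio of 5p to 3p differed between hypoxia and normoxia by -1.40 for miR-301, by -0.49 for miR-130 and by -0.35 for miR-454, the last over its tested entries. Among 46 families with both arms tested, 29 had a lower ratio in hypoxia, with a median difference of -0.08. Over all libraries miR-301, miR-130 and miR-454 ranked 1, 5 and 9 from the lowest. In the other families arms were read from the names, and entries whose names give no arm were left out. Among those left out was oni-miR-21, with a hypoxia mean of 19220 CPM. The ratios are thus not all of like kind, which limits the ranks, the median and the share below. Without hypoxia replicate 1 the differences for miR-301, miR-130 and miR-454 were -0.26, -0.17 and -0.01, beside a median of -0.07. The ranks above did not hold there: miR-7, miR-23 and miR-181, among others, lay lower than miR-301, at -1.26, -0.73 and -0.64. In each of miR-301, miR-130 and miR-454 the groups overlapped, while in 11 of the 46 families (23.9%) they did not.

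**Figure D4:**
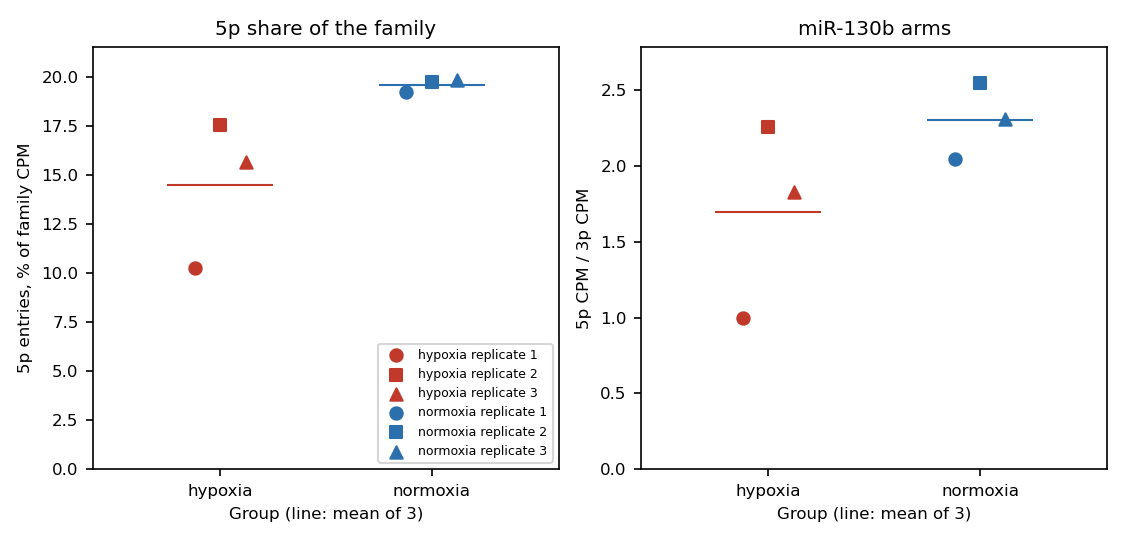
Left, share of the family's CPM in 5p entries; right, ratio of oni-miR-130b-5p_1ss9CT to dre-miR-130b; each point is a library, hypoxia left of normoxia, with the mean of 3 as a line. The 5p share is 10.2% to 17.5% in hypoxia and 19.3% to 19.9% in normoxia, and hypoxia replicate 1 is lowest in both panels.

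The other 7 entries of the 5p arm were rare. dre-miR-301c-5p_L-1R+1 had 2.43, 16.6 and 13.1 CPM in hypoxia replicates 1, 2 and 3, against 17.8, 16.1 and 13.6 CPM in normoxia, so that 1 library held the difference. Its log2 fold change was -0.46 ± 0.44 over all libraries and -0.05 ± 0.22 without hypoxia replicate 1. dre-miR-301b-5p_R+1, ipu-miR-130c_R+3 and ssa-miR-454-5p had 0 counts in hypoxia replicate 1, where a count of 0 allows up to 1.46 CPM (3 counts of its scaled total), a limit for counting error only. In the other 5 libraries they lay at 2.05 to 2.76, 1.66 to 3.76 and 0.957 to 1.78 CPM. ssa-miR-454-5p thus lay on both sides of that limit, and the other 2 above it. ssa-miR-454-5p was the entry the filter left out. Its groups did not overlap either, at 0 to 0.967 CPM in hypoxia and 1.20 to 1.78 CPM in normoxia, but the 0 allows up to 1.46 CPM. dre-miR-301b-5p_R+1 and dre-miR-301c-5p_L-1R+1, like the pair of miR-130c 5p entries, had values whose sum was whole in 6 of 6 libraries although each was whole in 2 of 6. As 1 value the miR-130c pair stood at 5.14 ± 2.00 CPM in hypoxia, against 8.75 ± 2.22 CPM in normoxia (SD, n = 3 each), a log2 fold change of -0.68 ± 0.38. ssa-miR-130b-5p_2ss10GA12AG and ccr-mir-454a-p5_1ss16CT had log2 fold changes of -0.28 ± 0.32 and -0.10 ± 0.33. Without hypoxia replicate 1 these were -0.14 ± 0.30 and 0.11 ± 0.29, and those of dre-miR-130c-5p_L-2R+2, ipu-miR-130c_R+3 and dre-miR-301b-5p_R+1 were -0.32 ± 0.36, -0.69 ± 0.53 and 0.15 ± 0.46, in place of -0.50 ± 0.39, -1.07 ± 0.71 and -0.26 ± 0.71. The signs of ccr-mir-454a-p5_1ss16CT and dre-miR-301b-5p_R+1 thus turned.

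By level in normoxia the order was dre-miR-454b_R+1, then oni-miR-130b-5p_1ss9CT and dre-miR-130c-3p, whose ranges overlapped (269 to 308 and 269.7 to 293 CPM), then dre-miR-130b and dre-miR-130a, which with listings summed overlapped neither each other nor their neighbours. At its listed mean of 24.8 CPM, dre-miR-130a would lie within the range of dre-miR-301c-3p_R+1. hsa-miR-454-3p_R+1, dre-miR-301c-3p_R+1 and cpo-miR-301a-3p_R-2 followed at 24.9 to 36.5, 18.0 to 32.4 and 17.4 to 23.6 CPM, with overlap between neighbours, and the other 9 entries reached at most 17.8 CPM. In hypoxia oni-miR-130b-5p_1ss9CT, at 200.3 to 245 CPM, lay below dre-miR-130c-3p, at 248 to 417 CPM with listings summed, in all 3 libraries. In replicate 2 the 2 entries were nearly level, at 245 and 248 CPM from 1770 and 1791 counts. dre-miR-130b reached 201 CPM in replicate 1.

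Other families hold the same letters moved by 1 base, and are given here because they can pair with overlapping target letters. The miR-19 seed starts 1 base later and that of miR-148 and miR-152 1 base earlier, in capitals here for the most abundant entries.
dre-miR-19c-3p_R-1_2ss9TC22CG: tGTGCAAAcccatgcaaaactg
dre-miR-19b-3p_R-1: tGTGCAAAtccatgcaaaactg
dre-miR-148_R-1: tCAGTGCAttacagaactttg
dre-miR-152_2ss10GA22GT: tCAGTGCAtaacagaactttgt

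The summed level, over both arms, was 1648 to 2111 CPM in hypoxia and 1595 to 1794 CPM in normoxia for miR-130, miR-301 and miR-454, and 2885 to 3355 CPM in hypoxia and 2995 to 3437 CPM in normoxia for miR-19. For miR-148 with miR-152 it was 54680 to 61657 CPM in hypoxia and 61896 to 72590 CPM in normoxia. Both lay above the miR-130, miR-301 and miR-454 sum in every library. Of their 16 tested entries, both arms included, 0 passed, beside 2.70% of all tested entries. Of those 16 related entries 15 had a log2 fold change below 0, with a median of -0.16, and without hypoxia replicate 1 it was 14 of 17 with a median of -0.12. Over all tested entries 287 of 519 were below 0, with a median of -0.04. Without hypoxia replicate 1 that was 255 of 554, with a median of 0.05. dre-miR-19c-3p_R-1_2ss9TC22CG lay at -0.04 ± 0.12, dre-miR-19b-3p_R-1 at -0.08 ± 0.13, dre-miR-148_R-1 at -0.25 ± 0.10 and dre-miR-152_2ss10GA22GT at -0.04 ± 0.10. The difference between these families and the 3p entries above was not tested.

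In the list of miRNAs reported to respond to low oxygen in vertebrates, 2 of 54 tested entries rose and 2 fell (7.41% called, beside 2.70% of all tested entries), with a median log2 fold change of -0.05, and 0.06 without hypoxia replicate 1. The summed level of the list was 158056 to 162095 CPM in hypoxia, against 172711 to 179335 CPM in normoxia. Its most abundant entry, dre-miR-26a-5p, was 1 of the 2 that fell, with means of 36102 CPM in hypoxia and 49436 CPM in normoxia. It lay just under the threshold of 0.05 (edgeR, Benjamini-Hochberg adjusted p = 0.0494). The 2 that rose were dre-miR-210-5p_1ss20TC and dre-miR-210-3p_R-2, at log2 fold changes of 1.34 ± 0.14 and 1.25 ± 0.17.

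Marker miRNAs of other cell types were measured in the same libraries. Endothelial miR-126 had 0 of 4 tested entries passing and a median log2 fold change of 0.33, with a summed level of 15767 to 17733 CPM in hypoxia, against 11829 to 13516 CPM in normoxia. The erythrocyte miRNAs miR-144, miR-451 and miR-486 had 2 of 7 tested entries that rose (28.6%, beside the same 2.70%) and a median of 0.35, with a summed level of 7203 to 9174 CPM in hypoxia, against 4842 to 5917 CPM in normoxia. Both entries that rose lay just under the threshold of 0.05 (edgeR, Benjamini-Hochberg adjusted p = 0.0494 for each). The count passing over all entries moved with the processing, as given below. Neither sum overlapped between the groups. Among single tested entries, 26.0% did not overlap. Leukocyte, stromal with smooth muscle, epithelial, pancreas, muscle and hepatocyte lists had 0 entries passing, with medians of -0.14, -0.06, -0.07, -0.38, 0.17 and -0.11 in that order. They held only 6, 14, 12, 4, 6 and 11 tested entries, so 0 passing tells little. Without hypoxia replicate 1 the medians were -0.14, 0.06, -0.02, -0.32, 0.18 and -0.05. Of these lists, the epithelial and pancreas sums did not overlap between the groups either, with hypoxia lower. The epithelial sum was 2549 to 2956 CPM in hypoxia and 3017 to 3372 CPM in normoxia. For pancreas it was 1121 to 1398 CPM in hypoxia and 1399 to 1653 CPM in normoxia, so that the ranges nearly met. The sums of the remaining lists overlapped. The part of these markers in the values of the family was not tested.

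The profile of dre-miR-454b_R+1 over the 6 libraries was set beside those of 319 entries outside the family with a mean of at least 10 CPM, by the root mean square difference of log2 CPM after centring each entry. The nearest were dre-miR-731_R-1_1ss23CT, ssa-miR-15d-5p and dre-miR-181b-5p_R+1, at 0.07, 0.08 and 0.08 on the log2 scale. dre-miR-731_R-1_1ss23CT had 432, 319 and 328 CPM in hypoxia replicates 1, 2 and 3, against 326, 315 and 296 CPM in normoxia, again with hypoxia replicate 1 highest. Within the family dre-miR-130a was nearest at 0.09, and would rank 5 among the outside entries. Next came dre-miR-130c-3p at 0.15, while oni-miR-130b-5p_1ss9CT stood at 0.34. These are descriptions over 6 libraries that share their depth and composition.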

How the data were processed

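Per the labels' protocols, small RNA of the vesicles was ligated to adapters, amplified, selected on a gel and sequenced, and reads were cut to single ends. Not given in the sources used here: aligner, miRNA caller, genome build, filters. The authors deposited 1 table of estimated counts, unscaled per the file headers, with 1088 rows and 874 distinct sequences; of the nonzero values 70.0% were whole to within 1e-06. Listings of 1 sequence were summed, and in 18 cases sequences of 1 precursor with identical values were joined, which gave 841 entries.

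Counts were rounded, filtered with filterByExpr, scaled by TMM and fitted in edgeR 4.0.16 (quasi-likelihood, 2 groups of 3, no block), with Benjamini-Hochberg adjustment over 519 entries and a threshold of 0.05. Standard errors were taken from the log2 fold change and its F statistic. CPM are counts scaled by the TMM library total, on which 3 counts came to 0.357 to 1.46 CPM. Total counts were 2038299 to 8497215 per library. The limits at 3 counts cover counting error only, whereas SD and SE also take in the spread between libraries. Alternatives used DESeq2 1.42.0 and limma 3.58.1, and RNAduplex of ViennaRNA 2.7.2 gave duplex energies. Of the fits, only the main edgeR one was tested on simulated counts, and those results are not given here. Arms of the family were set by the seed, and those of other entries by their names. All members are described. Other entries named are the 2 most abundant of each related seed and the 3 nearest profiles. Also named are oni-miR-21, as an entry without an arm in its name, and 3 entries of the low-oxygen list. A further list is not reported here. Members and lists were chosen with earlier results of these data known. All replicate pairs differed by more than sampling noise (lowest chi-square over its degrees of freedom 44.7).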

Additional observations from a re-analysis of the deposited data

How the results depend on the processing

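In all 19 alternatives 0 family entries were called, and 0 of the 293 single-member values with an adjusted p passed; 3 more, with DESeq2, had none. The sign differed from the reported one in 12 of the 296 values, over 6 members. Over all entries the count of 14 became 5 with total counts only, 51 with DESeq2, 22 with limma-voom, 59 with no filter on low counts and 3 with offsets for GC content and length. With 1 library left out at a time it ranged from 0 (73 entries with an unadjusted edgeR p under 0.05, without normoxia replicate 2) to 52 (without hypoxia replicate 2), and leaving out hypoxia replicate 1 or normoxia replicate 1 gave 1 each, hypoxia replicate 3 gave 2 and normoxia replicate 3 gave 5. Every sequence kept apart gave 3, and family sequences that share reads summed gave 3; both were chosen after seeing the data. Libraries with the same replicate number did not deviate together (Pearson r of -0.13, -0.06 and -0.05 across entries, which are not independent), and with the replicate block the count was 7. The normoxia mean of the summed family was 1502 CPM at listed values. The causes were not tested. Signs above 0 in the 3p arm and below 0 in the 5p arm were 8 of 9 and 7 of 7 in the fit reported. They were 8 of 9 and 6 of 7 with limma-voom and without normoxia replicate 1, 9 of 9 and 7 of 7 without normoxia replicate 2, and 7 of 9 and 7 of 7 without normoxia replicate 3. A stricter filter gave 7 of 8 and 7 of 7, and without hypoxia replicate 1 they were 6 of 9 and 5 of 7. With shared reads summed, the entries that stayed single gave 6 of 6 and 3 of 3. The summed sets, not in those counts, lay at 0.40 for miR-301 3p, -0.68 for the miR-130c 5p pair and -0.45 for miR-301 5p. Without the filter the family had 17 tested entries, with a stricter one 15. In the shallowest library 3 of the rare 5p entries had 0 counts, and its limit of 1.46 CPM was the highest of the 6.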
